A study of Homo sapiens with 6 samples.

Results

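The genes described here encode enzymes that make NADPH or supply its precursor NADP: NNT, the malic enzymes ME1, ME2 and ME3, the isocitrate dehydrogenases IDH1 and IDH2, PGD, and the NAD kinases NADK and NADK2. They were taken as a list of 9 genes out of the 10756 genes named for the authors' processed probes. Every probe so annotated to them was used, 11 in all. Probes left out of the authors' processed values carry no gene name here, so further probes of these genes may have been missed. By the compartment in which the enzyme works, 5 are mitochondrial (NNT, IDH2, ME2, ME3 and NADK2) and 4 are cytosolic (IDH1, which is also found in peroxisomes, ME1, PGD and NADK).

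Expression was measured on Illumina bead arrays in PC3, an established line of human prostate cancer, in cells set up so that doxycycline induces PGC1A, which switches on mitochondrial genes together with the transcription factors that recruit it. There were 3 arrays of cells given doxycycline for 2 passages and 3 arrays of cells without doxycycline, and both groups carry the inducible system. The labels do not say whether the line is a clone, which promoter drives the construct, or whether each replicate is a culture of its own. The p-values therefore reflect how much these arrays differ within a group, and that spread could be technical. Doxycycline given to cells without the construct was not analysed here, so doxycycline and induced PGC1A cannot be told apart.

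NADPH is the electron donor for reductive synthesis and for the enzymes that keep glutathione and thioredoxin reduced. Because the mitochondrial inner membrane does not let it pass, each side of the membrane has its own sources. In the matrix, NNT uses the proton gradient to move a hydride from NADH to NADP, while IDH2 and ME3 take it from isocitrate and malate. In the cytosol, IDH1 and ME1 do the same, and PGD does so in the oxidative arm of the pentose phosphate pathway. ME2 mainly uses NAD. NADK and NADK2 phosphorylate NAD to NADP in the cytosol and in mitochondria. PGC1A acts through partners that include the oestrogen-related receptors, which are known regulators of mitochondrial genes, whereas ME1 and PGD are known targets of the stress factor NRF2.

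One source rose with doxycycline, the mitochondrial NNT, by 1.54-fold. The cytosolic ME1 lay 1.38-fold and the mitochondrial ME3 1.34-fold above the cells without doxycycline, and neither passed the threshold. On their brightest probes IDH1, IDH2, ME2, PGD and NADK lay within 1.05-fold. NADK2 was too close to background to be tested. Of the 10 member probes tested, 1 passed at an adjusted p under 0.05, where 0.682% of all 15542 probes tested did (limma, Benjamini-Hochberg adjustment over all probes). That overall count was 106, and 167 with the replicate number as a block, or 1.07%, where NNT again was the 1 member probe called. Among all alternative settings the NNT call held in 8 of 16, and it was lost when any array was left out. The count over all probes then fell to between 1 and 26.

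**Figure D1:**
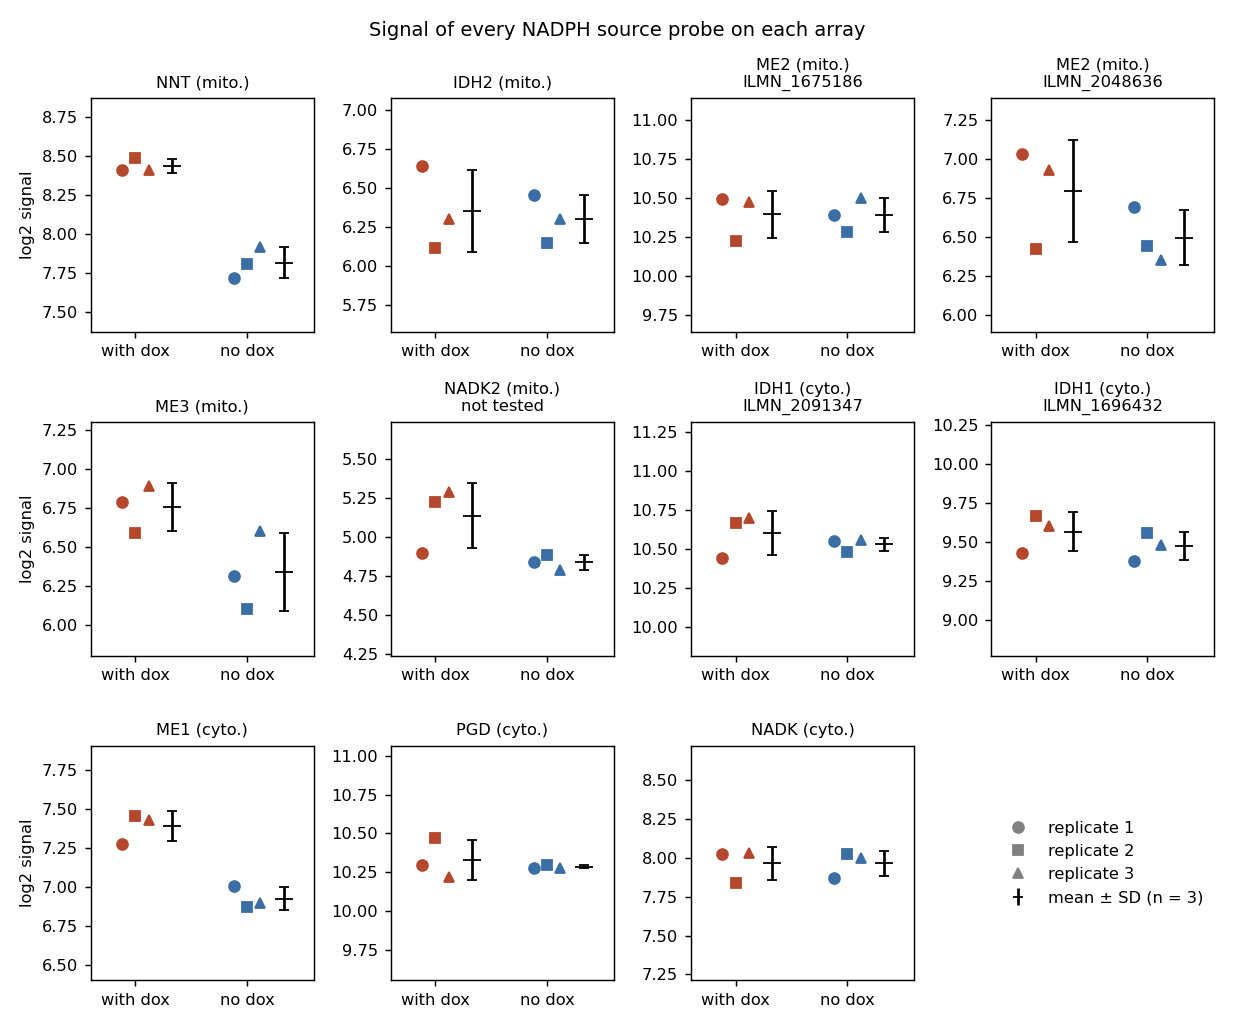
Log2 signal (vertical axis, background-corrected and quantile-normalized) of each of the 11 probes on each of the 6 arrays, with doxycycline on the left and without it on the right of each panel, and every panel spanning the same range of log2 units. Symbols mark replicates 1 to 3 and bars the mean ± SD (n = 3). Only NNT, ME1 and the untested NADK2, narrowly, show no overlap between the groups, as did 21.6% of all probes tested.

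The promoters of NNT and ME1 are shown because they had the lowest p-values among the members, and that of IDH1 because it holds a similar motif while its gene's 2 probes lay within 1.07-fold. RefSeq on GRCh38.p14 lists 17 start windows for the 9 genes, each reaching from upstream of a start site to just past it, and all 9 genes matched by symbol. Each sequence runs 5′ to 3′ on the gene's strand, and capitals mark the core of the antioxidant response element, TGACNNNGC on either strand, through which NRF2 acts.
NNT, first window, chr5:43602425-43602724, plus strand: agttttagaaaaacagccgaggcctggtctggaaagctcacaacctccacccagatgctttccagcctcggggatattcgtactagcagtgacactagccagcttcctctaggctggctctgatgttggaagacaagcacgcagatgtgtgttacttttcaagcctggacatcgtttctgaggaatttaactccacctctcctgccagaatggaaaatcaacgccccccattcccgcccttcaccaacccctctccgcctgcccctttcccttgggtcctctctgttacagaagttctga
NNT, second window, chr5:43602930-43603229, plus strand: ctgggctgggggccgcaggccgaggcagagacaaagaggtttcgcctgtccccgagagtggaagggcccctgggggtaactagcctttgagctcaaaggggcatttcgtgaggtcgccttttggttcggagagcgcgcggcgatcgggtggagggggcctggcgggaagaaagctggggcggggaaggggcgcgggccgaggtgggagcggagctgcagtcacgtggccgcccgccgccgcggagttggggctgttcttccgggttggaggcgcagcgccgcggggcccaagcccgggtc
ME1, chr6:83431002-83431301, minus strand: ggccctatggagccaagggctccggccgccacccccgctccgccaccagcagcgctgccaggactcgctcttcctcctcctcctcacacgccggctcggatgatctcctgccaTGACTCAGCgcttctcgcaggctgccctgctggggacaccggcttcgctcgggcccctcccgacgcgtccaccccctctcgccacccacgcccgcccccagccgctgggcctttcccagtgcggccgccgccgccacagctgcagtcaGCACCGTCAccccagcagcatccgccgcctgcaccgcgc
IDH1, second of 2 windows, chr2:208255022-208255321, minus strand: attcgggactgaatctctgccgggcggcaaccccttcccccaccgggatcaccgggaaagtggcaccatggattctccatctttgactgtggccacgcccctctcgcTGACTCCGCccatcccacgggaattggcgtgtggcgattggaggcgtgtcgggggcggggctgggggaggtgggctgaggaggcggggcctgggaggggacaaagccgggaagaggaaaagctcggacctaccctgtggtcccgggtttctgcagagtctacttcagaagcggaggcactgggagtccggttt

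The ME1 window held this core at 2 places, TGACTCAGC from base -137 to -129 and a different match, on the other strand, GCACCGTCA from base 12 to 20. Negative numbers count back from the start site. The IDH1 window held TGACTCCGC from base -143 to -135, and the PGD window held GCAATGTCA from base -201 to -193. These were 3 of the 17 member windows, against 13.3% of all 35116 windows. The core of the oestrogen-related receptor element, AAGGTCA, its longer form TCAAGGTCA and the core of the nuclear respiratory factor 1 element, CGCATGCG, were each found in 0 of the 17 member windows, where 3.92%, 0.353% and 2.02% of all windows held them. The longer receptor element contains the shorter one, and both strands were read. The NNT windows differ in composition, with 52.3% G and C and 8 CpG pairs in the first and 71% and 30 in the second. A match is a description of letters and not of a bound site, and the lack of one says only that those letters are not in the window.

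NNT, the proton-driven transhydrogenase, was read by 1 probe, detected on all 6 arrays. Its log2 signal was 8.41, 8.49 and 8.41 with doxycycline, against 7.72, 7.81 and 7.92 without it (replicates 1 to 3). The raw intensities behind these were 373, 392 and 348.6 with doxycycline and 252.3, 280 and 304.3 without it. Every array with doxycycline lay above every array without it, on both scales. The means were 8.44 ± 0.05 with doxycycline and 7.81 ± 0.10 without it (SD, n = 3 each). The log2 change was 0.62 (SE 0.088, 95% interval 0.42 to 0.83), or 1.54-fold with an interval from 1.34 to 1.77, and passed over all probes (limma, adjusted p = 0.0312). By size of rise it stood at rank 109, within the top 0.701% of all probes tested. It also passed with 1 probe per gene (adjusted p = 0.0327), where 0.539% of 9841 genes were called. On the authors' deposited table the difference in log2 values was 0.54.

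The NNT call rested on all 6 arrays. Leaving out doxycycline replicates 1, 2 and 3 in turn gave log2 changes of 0.64, 0.60 and 0.64 with adjusted p of 0.103, 0.0673 and 0.118 (limma). Leaving out replicates 1, 2 and 3 of the cells without doxycycline gave 0.58, 0.62 and 0.68 with adjusted p of 0.0987, 0.151 and 0.126. The size of the change stayed between 0.54 and 0.68 in all 16 alternatives. The call was also lost with median scaling (adjusted p = 0.0517) and without a detection filter (adjusted p = 0.0558).

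**Figure D2:**
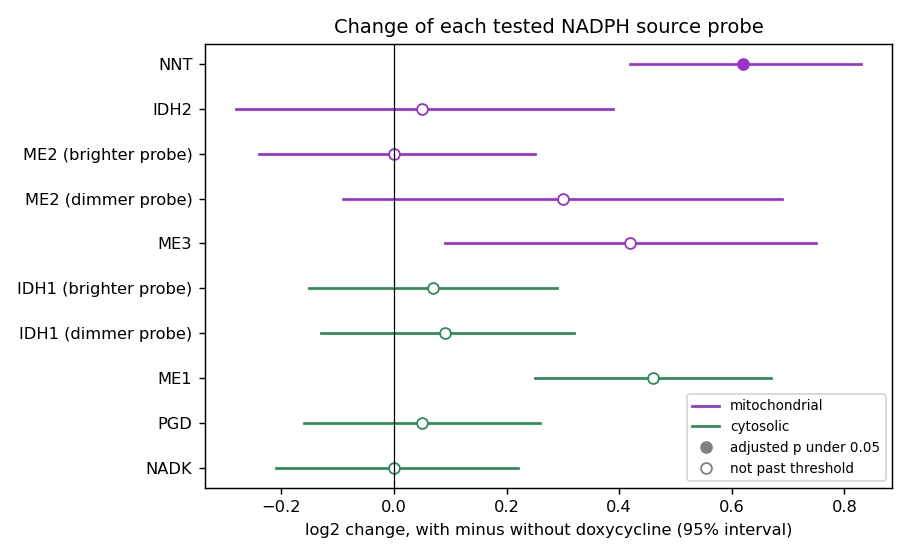
Log2 change with minus without doxycycline (horizontal axis) of each of the 10 tested probes, with its 95% interval as a line, mitochondrial enzymes above cytosolic ones. NNT at 0.62 is the filled point past the threshold, and the intervals of ME1 and ME3 also lie above 0 while those of the other 7 probes include 0.

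No change was resolved for the isocitrate dehydrogenases that use NADP in either compartment, and the IDH2 signal lay close to background. IDH2, the mitochondrial enzyme, was at 6.64, 6.12 and 6.30 with doxycycline and 6.46, 6.15 and 6.30 without it. Its groups overlapped, and within each of them replicate 1 was the highest and replicate 2 the lowest. The log2 change was 0.05 (SE 0.145), and its 95% interval from -0.28 to 0.39 leaves room for a fold between 0.823 and 1.31 (limma, adjusted p = 0.893). IDH1, the cytosolic and peroxisomal enzyme, had 2 probes. The brighter was at 10.44, 10.67 and 10.70 with doxycycline and 10.55, 10.48 and 10.56 without it, a change of 0.07 (interval -0.15 to 0.29, limma adjusted p = 0.761). The other gave 0.09 (interval -0.13 to 0.32, limma adjusted p = 0.691), so both IDH1 probes placed the gene within 1.25-fold at the upper end of their intervals.

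Among the malic enzymes, which turn malate into pyruvate, ME1 came nearest to the threshold without passing it. The cytosolic ME1 was at 7.28, 7.46 and 7.43 with doxycycline, against 7.01, 6.87 and 6.90 without it. The groups did not overlap, as was true of 21.6% of all probes tested. Its log2 change was 0.46 (SE 0.0905, interval 0.25 to 0.67), with an adjusted p of 0.0802, or 0.0752 with the replicate block (limma). It passed in 1 of 16 alternatives, that with array weights (0.49, limma adjusted p = 0.0311), and its change lay between 0.36 and 0.52 in all of them. On raw intensity the ME1 arrays read 190.7, 212.1 and 197 with doxycycline and 169.4, 166.9 and 171 without it.

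ME3, the mitochondrial malic enzyme that uses NADP, was at 6.79, 6.59 and 6.89 with doxycycline, against 6.31, 6.10 and 6.60 without it. The groups overlapped narrowly, between doxycycline replicate 2 and replicate 3 without doxycycline, while each numbered pair was higher with doxycycline. The log2 change was 0.42 (SE 0.142, interval 0.09 to 0.75, limma adjusted p = 0.239), and with the replicate block the adjusted p was 0.0712. ME3 lay close to background, and without background correction its change was 0.29. ME2, which mainly uses NAD, had 2 probes. The brighter was at 10.49, 10.22 and 10.47 with doxycycline and 10.39, 10.28 and 10.50 without it, a change of 0.00 (interval -0.24 to 0.25). The dimmer gave 0.30 (interval -0.09 to 0.69, limma adjusted p = 0.456), with 7.03, 6.42 and 6.93 with doxycycline and 6.69, 6.44 and 6.35 without it. The ME2 groups overlapped on both probes.

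PGD, the second NADPH-making dehydrogenase of the pentose phosphate pathway, was at 10.30, 10.47 and 10.22 with doxycycline and 10.28, 10.30 and 10.28 without it. The 3 arrays without doxycycline lay inside the range of those with it, and the change was 0.05 (interval -0.16 to 0.26, limma adjusted p = 0.849). NADK, the cytosolic kinase, was at 8.02, 7.84 and 8.03 with doxycycline and 7.87, 8.02 and 8.00 without it. That is a change of 0.00 (interval -0.21 to 0.22, limma adjusted p = 0.992), so a fold above 1.16 lies outside the interval.

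NADK2, the mitochondrial kinase, passed the detection limit on 2 of 3 arrays with doxycycline and 0 of 3 without it, which is 2 of 6 and short of the 3 asked for. Its log2 signal was 4.90, 5.23 and 5.29 with doxycycline and 4.84, 4.89 and 4.79 without it. These groups did not overlap, but only narrowly (4.90 against 4.89), and the signal without doxycycline is only a bound. On raw intensity they did overlap, at 67.92, 76.27 and 75.36 with doxycycline and 70.94, 74.44 and 69.25 without it. Set against the lowest detected signal, the NADK2 mean with doxycycline (5.14) was no higher than the bound without it (5.16), so no fold is given. Tested without a detection filter it was at 0.30 (limma adjusted p = 0.401), and on the authors' deposited values at 0.15 (limma adjusted p = 0.425).

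By compartment, using the brightest tested probe of each gene, the 4 tested mitochondrial members had a median log2 change of 0.24 and the 4 cytosolic ones 0.06, while the median over all probes tested was -0.02. Called members were 1 of 4 in mitochondria and 0 of 4 in the cytosol, where 0.682% of all probes tested were called. With array weights the cytosolic ME1 passed as well (limma adjusted p = 0.0311). Members without overlap between the groups were 1 of 4 in each compartment, NNT and ME1, which is near the 21.6% found over all probes. The mitochondrial range ran from 0.00 for ME2 to 0.62 for NNT and the cytosolic range from 0.00 for NADK to 0.46 for ME1, so the compartments overlapped. The difference of the medians, 0.18, moved between 0.07, without doxycycline replicate 1, and 0.29, without doxycycline replicate 2. With 4 genes a side, the mitochondrial median is the mean of IDH2 and ME3 and does not reflect the size of NNT.

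Enzymes with a counterpart across the membrane were compared directly, as the difference between their log2 changes, in 3 pairs. With 3 arrays against 3, the exact permutation test over arrays cannot go below p = 0.1, and it treats the arrays as unpaired. The change of ME2 minus that of ME1 was -0.46 on the brighter ME2 probe (two-sided exact permutation p = 0.1, adjusted p = 0.3 over the 3 pairs), and the log ratio was lower with doxycycline in 3 of 3 same-numbered pairs of arrays (2 of 3 for each of the other comparisons). That value depends on the probe: the difference was -0.16 with the dimmer ME2 probe and -0.31 with the mean of both, settings added after the data were seen. For ME3 minus ME1 it was -0.04 (exact permutation p = 0.9, adjusted p = 1) and for IDH2 minus IDH1 -0.02 (exact permutation p = 1, adjusted p = 1). The pair of NADK2 and NADK was not compared, since NADK2 was not tested.

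The signal pattern of NNT over the 6 arrays was most like that of CLHC1 (Pearson r = 0.9975), SLC25A12 (r = 0.9962), which encodes a mitochondrial aspartate-glutamate carrier, and COPS4 (r = 0.9936), a subunit of the COP9 signalosome. These are the highest of 9840 genes compared, and 96 of them had r above 0.95, so the likeness describes these arrays only. None of the 3 passed the threshold. The log2 changes were 0.15 for CLHC1, 0.36 for SLC25A12 and 0.13 for COPS4 (limma adjusted p = 0.375, 0.109 and 0.456).

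**Figure D3:**
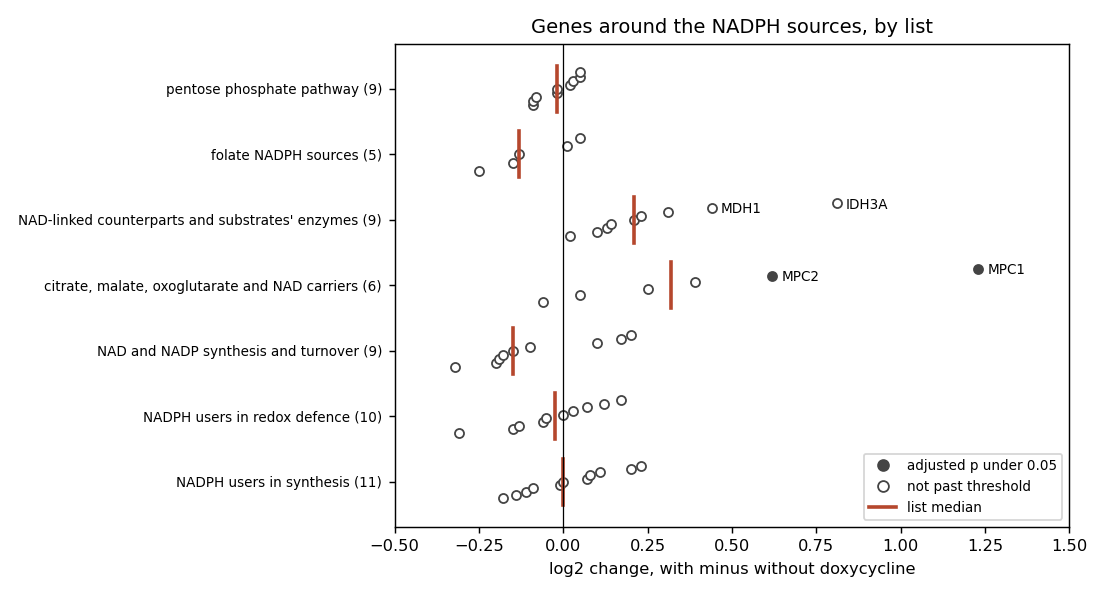
Log2 change with minus without doxycycline (horizontal axis) of the tested genes of 7 lists around the NADPH sources, with the number tested in brackets, each gene a point and each list median a bar. MPC1 and MPC2 are the filled points past the threshold. All 9 genes of the third list, which mixes NAD-linked enzymes with others of the same substrates, lie above 0 on their brightest probes (8 of 9 with median scaling). The dimmer ACLY probe, not drawn, lies below 0.

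Genes that surround these sources were read with 1 probe per gene, where 0.437% of 9841 genes were called higher with doxycycline and 0.102% lower, and the median change was -0.03. In the pentose phosphate pathway 0 of 9 tested genes passed, and none of the 9 had groups without overlap (21.5% of all genes did). The largest differences were in DERA (-0.09) and RPIA (-0.09), with limma adjusted p of 0.766 and 0.806, and the median was -0.02. H6PD, the endoplasmic reticulum enzyme, was detected on 2 of 6 arrays and not tested. Of 8 listed folate enzymes at or next to the steps that make NADPH, 5 had a named probe and were tested. None passed (0 of 5), and their median was -0.13. MTHFD1L was at -0.25 (limma adjusted p = 0.224) without overlap and SHMT2 at -0.15 (adjusted p = 0.49).

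A mixed list held NAD-linked dehydrogenases and other enzymes of the same substrates, among them CS, ACO1 and ACLY, which do not use NAD. On the brightest probes 9 of 9 genes lay above 0 (8 of 9 with median scaling), against 4270 of all 9841 tested. The median was 0.21, although 0 of 9 passed (4 of 9 had groups without overlap). ACLY was at 0.02 on its brighter probe but at -0.29 on its dimmer one (limma adjusted p = 0.474). The dimmer probes of CS and IDH3G lay above 0. IDH3A, the catalytic subunit of the isocitrate dehydrogenase that uses NAD, averaged 10.43 ± 0.22 with doxycycline and 9.62 ± 0.16 without it (SD, n = 3 each). Its log2 change of 0.81 (SE 0.133, 1.76-fold) narrowly missed the threshold and passed with the replicate block (limma adjusted p = 0.0502 and 0.0164), a fit that called 1.35% of all genes higher. The interval of IDH2, which lay near background, reached up to 0.39, and the difference between the changes of IDH3A and IDH2 was not tested. MDH1, the cytosolic malate dehydrogenase, was at 0.44 (limma adjusted p = 0.0761, and 0.0545 with the block).

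Of 6 tested carriers of citrate, malate, oxoglutarate, pyruvate and NAD, 2 rose, MPC1 (1.23) and MPC2 (0.62), with limma adjusted p of 0.0291 and 0.0327. They are the subunits of the mitochondrial pyruvate carrier. With any single array left out, 0 to 1 genes over all 7 lists passed. The list median was 0.32. Of the other 4, the oxoglutarate carrier SLC25A11 was at 0.39 (limma adjusted p = 0.167) and the NAD carrier SLC25A51 at 0.25 (adjusted p = 0.494). The citrate carrier SLC25A1 was at -0.06 (limma adjusted p = 0.828) and the dicarboxylate carrier SLC25A10 at 0.05 (adjusted p = 0.91).

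Synthesis and turnover of NAD and NADP had 0 of 9 tested genes past the threshold and a median of -0.15. NMNAT2 was at -0.32 (limma adjusted p = 0.541), and NAMPT, the rate-limiting enzyme of NAD salvage, at -0.20 (adjusted p = 0.323) without overlap. NADSYN1, the NAD synthetase, lay the other way at 0.20, also without overlap (limma adjusted p = 0.371). The lists of NADPH users, which also hold proteins downstream or upstream of the enzymes that use it (TXN2, GLRX, FDX1 and HMGCS1 among them), had no call either. In redox defence 0 of 10 passed, with a median of -0.02, TXN2 at -0.31 (limma adjusted p = 0.56) and GLRX at 0.17 (adjusted p = 0.498). In synthesis 0 of 11 passed, with a median of 0.00, FDX1 at 0.23 (limma adjusted p = 0.395) and DHCR7 at 0.20 (adjusted p = 0.625).

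**Figure D4:**
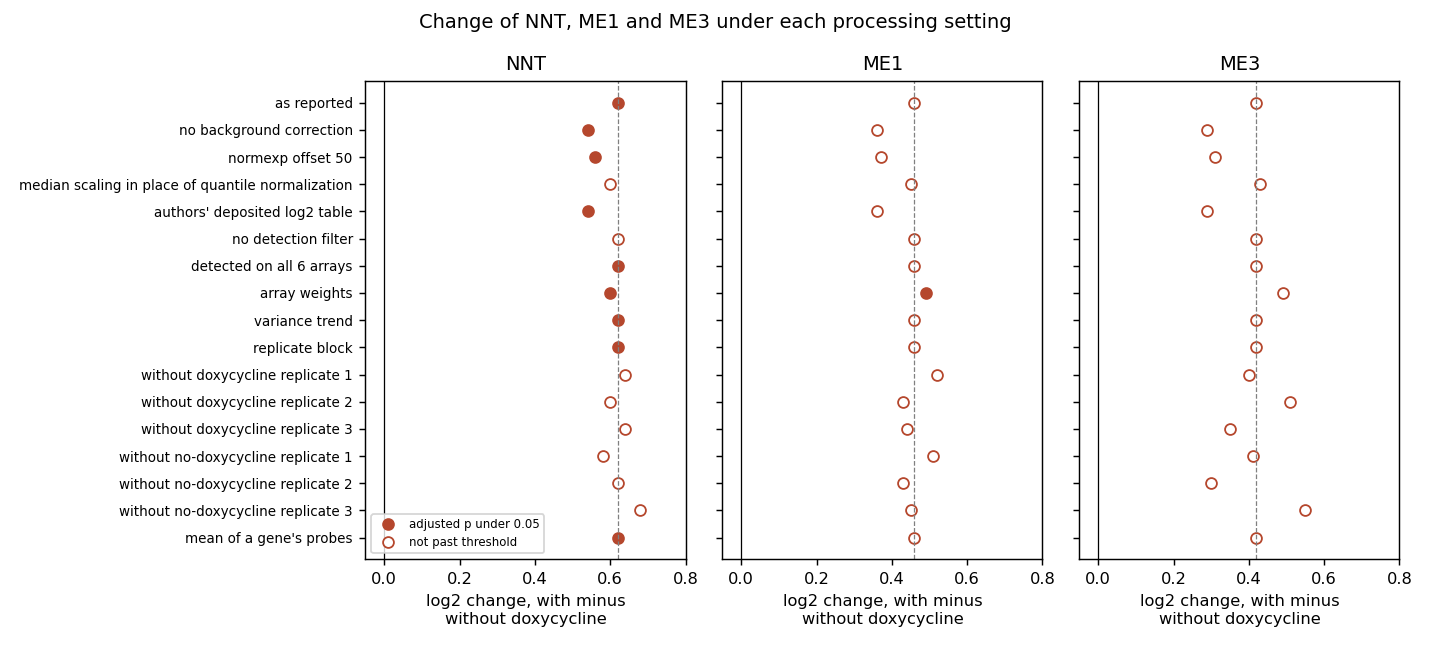
Log2 change with minus without doxycycline (horizontal axis) of NNT, ME1 and ME3 as reported, dashed, and under each alternative setting (vertical axis), filled where the adjusted p was under 0.05. NNT lies between 0.54 and 0.68, ME1 between 0.36 and 0.52 and ME3 between 0.29 and 0.55, and NNT loses its call when any array is left out.

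The arrays detected 15437 to 16012 probes with doxycycline and 15029 to 15841 without it. In a principal component analysis the groups lay apart on the first axis (34.1% of the variance), and doxycycline replicate 2 lay farthest out, at -20.61, where the other arrays with doxycycline were at -7.35 and -7.51 and those without it between 8.84 and 13.65. PPARGC1A, the gene of PGC1A, was read by a probe near background (log2 change 0.04, limma adjusted p = 0.951), and it is no check of the labels, because its place relative to the construct is unknown here. PPARGC1B, the related coactivator, was at 0.20 (limma adjusted p = 0.579), and ESRRA, the oestrogen-related receptor partner, at 0.50 (limma adjusted p = 0.0502, and 0.037 with the replicate block).

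Of 5 epithelial markers 4 were tested (KRT8, KRT19, EPCAM and CDH1), and KRT18 was detected on 1 of 6 arrays. Raw intensity summed over every annotated probe of all 5, tested or not, was 5237 to 6396 with doxycycline and 5678 to 7009 without it. Of 6 fibroblast markers 3 were tested, of which LUM and COL1A2 were detected on all arrays. The 5 with a probe, tested or not, summed to 3163 to 3521 with doxycycline and 3258 to 3912 without it. These are raw sums, and the array medians were lower with doxycycline (60.03 to 61.59) than without it (65.58 to 68.04). On the normalized scale LUM averaged 8.92 ± 0.11 with doxycycline and 8.59 ± 0.11 without it (SD, n = 3 each), a log2 change of 0.33 without overlap (limma adjusted p = 0.19), while COL1A2 was at -0.03 (adjusted p = 0.927, and 0.14 on its dimmer probe) and COL1A1 at -0.18 (adjusted p = 0.652). Of 5 leukocyte and 4 endothelial markers 1 each was tested, CD14 and PECAM1, at 66.22 to 81.4 and 65.53 to 97.99 with doxycycline and 84.28 to 90.45 and 84.31 to 106.5 without it, near the array medians of 60.03 to 68.04. The part of these markers in the NNT result was not tested.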

How the data were processed

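The deposited table gives the intensity of 47231 probes on a linear scale, not normalized between arrays as far as the values show, and a detection p-value for each, deposited beside it. The authors also deposited processed log2 values of 17925 probes, which equal quantile-normalized log2 intensity. The submitters' processing notes name lumi; other software and the genome build are not stated.

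Intensities were background-corrected (normexp, offset 16), quantile-normalized and put on a log2 scale with neqc (limma 3.58.1, R 4.3.3). The 15542 probes detected (p under 0.01) on 3 or more arrays were tested with lmFit and eBayes, two-sided, with Benjamini-Hochberg adjustment. For lists, the probe with the highest mean stood for its gene (9841 genes). The gene annotation covers the authors' 17925 processed probes and gives 1 gene for 13977 of them. Of these, 13970 matched RefSeq by Entrez number, which gave the current symbols. Other probes are unnamed here. On simulated data with 15542 probes, 44% of 50 probes with a log2 change of 0.5 were called and 82% of 50 with a change of 1. The simulated noise was drawn independently for each probe and array, whereas same-numbered arrays in these data shared deviations. The number of arrays limits the precision.

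Named are all members, PPARGC1A, PPARGC1B, ESRRA, up to 3 called genes per list (or the 2 largest differences where none was called), the cell markers and the 3 genes most like the called member. SLC25A1, SLC25A10, SLC25A11, SLC25A51, NADSYN1, CS, IDH3G, ACO1, ACLY, HMGCS1 and H6PD were added after values were seen. Members and lists were chosen with earlier results of these data known.

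Replicate numbers come from the titles. Deviations from group means correlated at 0.40, 0.46 and 0.24 for same-numbered arrays, all over 0.1, so the numbers were taken to pair the arrays and a fit with the replicate block was run beside the main one.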

Additional observations from a re-analysis of the deposited data

How the results depend on the processing

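Without background correction 198 probes, 81 genes and 4 list members passed, and the same numbers passed on the deposited log2 table, against 106, 53 and 2 as reported. With an offset of 50 these were 185, 80 and 4, with array weights 255, 207 and 4, and with a variance trend 184, 100 and 4. Median scaling gave 34 genes and 1 list member, and no detection filter gave 6 probes and 30 genes. The replicate block gave 167 probes and 177 genes, and changed no call among the member probes. Without 1 array, 1 to 26 probes, 1 to 9 genes, 0 to 1 list members and 0 to 0 member probes passed. Member probes called were 1 as reported, 2 with array weights (NNT and ME1), and 0 with median scaling or no detection filter. The size of NNT, ME1, ME3 and IDH1 kept its sign in all 16 alternatives.

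Changes near 0 turned sign in some settings, with no call in any: ME2 was at -0.04 and NADK at -0.02 with median scaling, and PGD at -0.01 with array weights. Leaving out single arrays moved IDH2 between -0.09 and 0.17, ME2 between -0.05 and 0.09, PGD between -0.02 and 0.10 and NADK between -0.04 and 0.06. For counts, fewer arrays or more probes tested are part of the alternative itself; otherwise the cause was not tested. Slide as a block was not run, since the files used here name no slide. Signal near background limits NADK2, IDH2 and ME3.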
